A study of Homo sapiens with 5 samples.

Results

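The collagen chain genes were taken as the protein-coding genes of the deposited table whose symbol is COL, a type number, the letter A and a chain number. This gave 44 of the 46427 genes in the table. They were grouped by class into 11 fibrillar chains, 6 basement membrane chains of type IV, 10 FACIT chains (fibril-associated collagens with interrupted triple helices) and 17 chains of other classes.

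RNA was sequenced from U87 MG, an established human glioblastoma line that grows as adherent, mesenchymal-looking cells. The 2 control libraries (titles u87_control2 and u87_control3) carry the genotype label CONTROL and no treatment. The other 3 (titles f2n11_csc1 to f2n11_csc3, called sorted libraries 1 to 3) are labelled as cancer stem cells and CD133 positive, that is, sorted from the line for the surface protein encoded by PROM1. What the code f2n11 in those titles stands for is not given in the labels. All are of a single line, no CD133-negative fraction is among the samples, and the labels do not tie replicates to separate cultures. The p-values here thus measure only the spread between these libraries, which may be technical.

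Collagens are trimers of chains wound into a triple helix through repeated glycine-led triplets. Fibrillar types form the tensile fibrils of the stroma, type IV forms the sheet of basement membranes, FACIT chains decorate fibrils, and type VI forms beaded filaments around cells. In normal brain, interstitial collagen is largely confined to vessels and meninges, while glioblastoma can lay down collagen of its own.

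Depth was 17716823 to 29841238 estimated counts per library. Levels between libraries are given as CPM (counts scaled to library size) scaled by TMM factors, and levels between genes as the authors' TPM or FPKM, which are corrected for length. Sorted library 3 was unlike the rest. Protein-coding genes took 60.9% of its counts and 7SL RNA took 24.4%. Both measures also differed between the groups without it. Protein-coding genes took 79.1% and 82.5% in controls, against 73.8% and 72.6% in sorted libraries 1 and 2. 7SL RNA took 6.29% and 5.71% in controls, against 10.9% and 12.01% in those sorted libraries. Calls that turn on sorted library 3 are given with and without it. The 9p21 genes CDKN2A and MTAP, known to be deleted in this line, had 0 counts in all 5 libraries. VIM stood at 2135 FPKM or more, and the astrocyte genes GFAP and S100B at 0.176 FPKM or less. Of 7 glioma line markers, these among them, 4 were tested, with 1 higher past the threshold and 0 lower. The 1 was NES, at 0.875 and 0.848 FPKM in controls, against 2.55, 2.15 and 1.73 in sorted libraries. Its log2 fold change came to 1.72 ± 0.25 (SE, edgeR adjusted p = 0.0253). VIM, CD44 and OLIG2 had every sorted library above both controls in CPM but did not pass. PROM1 itself was at 0.0797 FPKM or less in every library, so its transcript did not mark the sorted group. Markers that fibroblasts or pericytes share (7 genes) summed to 24.1 to 25.9 FPKM in controls, against 18.9 to 28.6 in sorted libraries, with ACTA2 higher and LUM lower past the threshold. The 4 immune genes summed to 67.8 and 88.9 FPKM in controls, against 91.8 to 152 in sorted libraries. Nearly all of that was the lysosomal macrophage gene CD68, which was higher past the threshold, while PTPRC was at 0.0182 FPKM or less and AIF1 at 0 in every library. The 4 endothelial genes summed to 2.02 and 2.15 FPKM in controls, against 0.652 to 1.48 in sorted libraries, with none past the threshold. THY1 was at 0 in sorted library 3 and at 0.165 FPKM or less elsewhere. The part of the 7SL and protein-coding shares and of these markers in the results below was not tested. In bulk RNA, a change in the share of cells that express a gene and a change in RNA per cell cannot be told apart.

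Collagen transcripts as a whole took a larger share of the counts in all 3 sorted libraries, with type VI the largest share in every library. The summed CPM of the 44 genes was 1279 and 1321 in controls 2 and 3, against 3071, 3287 and 2842 in sorted libraries 1, 2 and 3. The sorted mean was 2.36 times the control mean on that scale. On the authors' TPM the sums were 299 and 353 in controls, against 570, 592 and 252 in sorted libraries 1, 2 and 3. The ratio of the group means there was 1.45, and sorted library 3 lay below both controls. As a share of raw counts, collagen stood at 0.148% and 0.162% in controls, against 0.311%, 0.328% and 0.198% in sorted libraries 1, 2 and 3, where library 3 was the nearest to the controls. As a share of protein-coding TPM alone, collagen stood at 0.0642% and 0.0709% in controls, against 0.161%, 0.171% and 0.110% in sorted libraries, with no overlap. No p is given for these sums.

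The same few genes led the collagen repertoire in every library. The highest 5 TPM ranks went to COL6A2, COL1A2, COL6A3, COL6A1 and COL5A2 in all libraries but sorted library 2, where COL7A1 took rank 5 and COL5A2 rank 6. COL6A2 led in 4 of the 5 libraries, and COL6A3 led in control 2. Type VI took 48.2% and 49.2% of the summed collagen TPM in controls, against 57.1%, 56.2% and 67.3% in sorted libraries 1, 2 and 3. Type I, most of it COL1A2 in controls and almost all of it in sorted libraries, took 13.9% and 15.9% in controls. In sorted libraries 1, 2 and 3 it took 18.9%, 18.1% and 13.8%, which overlapped with the controls. The shares of types IV, V, VIII, XII and XVI were each smaller in all 3 sorted libraries than in either control. So were the small shares of types X, XI, XIII, XV, XXII and XXVII. Types VI, XIX and XXI had larger shares in all 3. For type IV the shares were 3.12% and 2.76% in controls, against 2.32%, 1.93% and 1.80% in sorted libraries. For type V they were 9.87% and 8.86% in controls, against 7.24%, 7.23% and 6.10% in sorted libraries. Type XVI went from 4.81% and 4.23% to 1.68%, 1.93% and 1.78%.

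**Figure D1:**
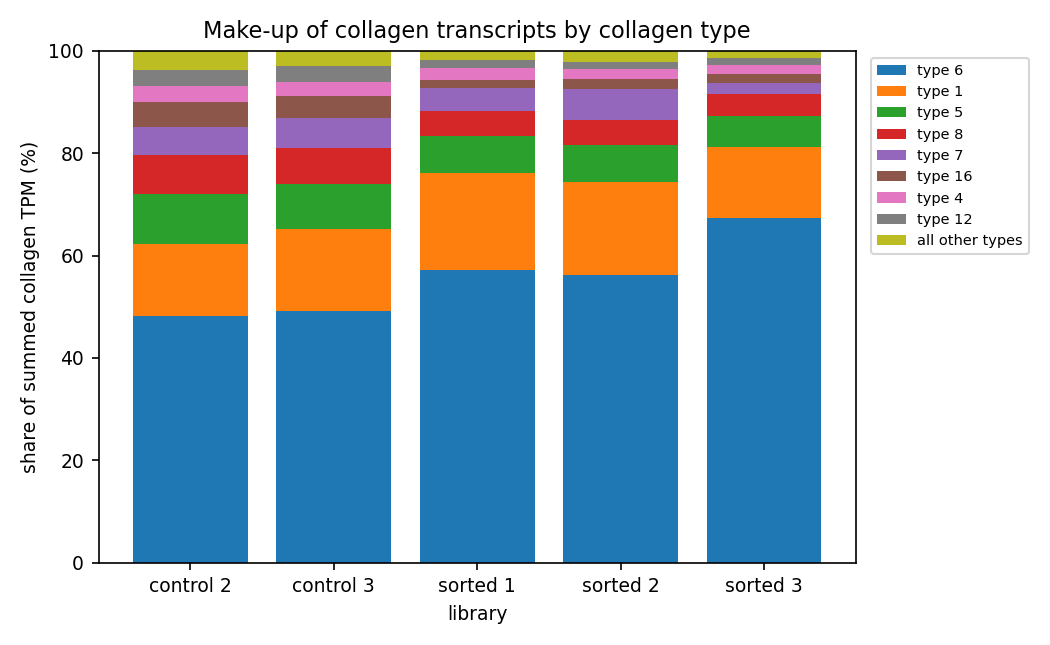
Share of the summed collagen TPM (vertical axis, percent) taken by each collagen type in each of the 5 libraries (horizontal axis), one stacked bar per library. Type VI (labelled type 6) takes 48.2% to 49.2% in controls and 56.2% to 67.3% in sorted libraries.

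Of the 44 genes, 7 had 0 counts in all 5 libraries: COL6A5 and COL6A6, which encode alternative type VI chains, the FACIT genes COL9A1 and COL20A1, the fibrillar gene COL24A1, the transmembrane gene COL23A1, and COL26A1. A count of 0 allows up to 3 counts, or 0.0822 to 0.227 CPM depending on the library, and this covers counting error only. A further 7 fell below the filter on low counts, among them COL2A1, the cartilage fibril chain, with 3 counts in control 2 and 0 elsewhere, and COL18A1, the source of endostatin, with 5 counts in control 3 and 0 elsewhere. The remaining 30 genes were tested.

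Of these 30 genes, 5 rose in the sorted libraries and 0 fell (edgeR quasi-likelihood fit over 16304 genes, threshold 0.05 on the Benjamini-Hochberg adjusted p), against 2.20% of all tested genes higher and 2.40% lower. The 5 were COL6A1, COL6A2, COL5A1, COL1A2 and COL4A6. Without adjustment, p lay under 0.05 for 15 with a positive and 2 with a negative fold change, against 12.2% and 13.6% of all genes. Positive fold changes numbered 25 of 30, against 49.9% of all genes. By DESeq2, 11 passed as higher and 0 as lower (8.76% and 8.16% of all genes), and by limma-voom 9 and 0 (3.78% and 5.35%). All 3 sorted libraries lay above both controls for 20 of the 30 (22.7% of all genes) and below them for 5 (27.7%). The median log2 fold change of the 30 was 0.96, or 1.00 without sorted library 3, beside 0.00 for all genes tested. On the authors' log2(TPM + 1) the median turned to -0.04, where that of all genes was -0.64. With library size alone the medians were 0.57 and -0.40. Without sorted library 3, 17 of 29 tested members were higher and 1 lower (15.4% and 16.8% of all genes), whereas without either control, sorted library 1 or sorted library 2 edgeR called 0 members, and 0 to 12 genes higher and 0 to 7 lower in all. Without sorted library 1, 12 members were higher and 1 lower at an unadjusted edgeR p under 0.05, where 23.5% of all genes passed in either direction. Without sorted library 2 these were 11 and 2, where 24% of all genes passed. Without control 2 or control 3 a single control is left. The median log2 fold change of the members was 0.96 and 1.18 there, beside 0.01 and 0.00 for all genes.

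**Figure D2:**
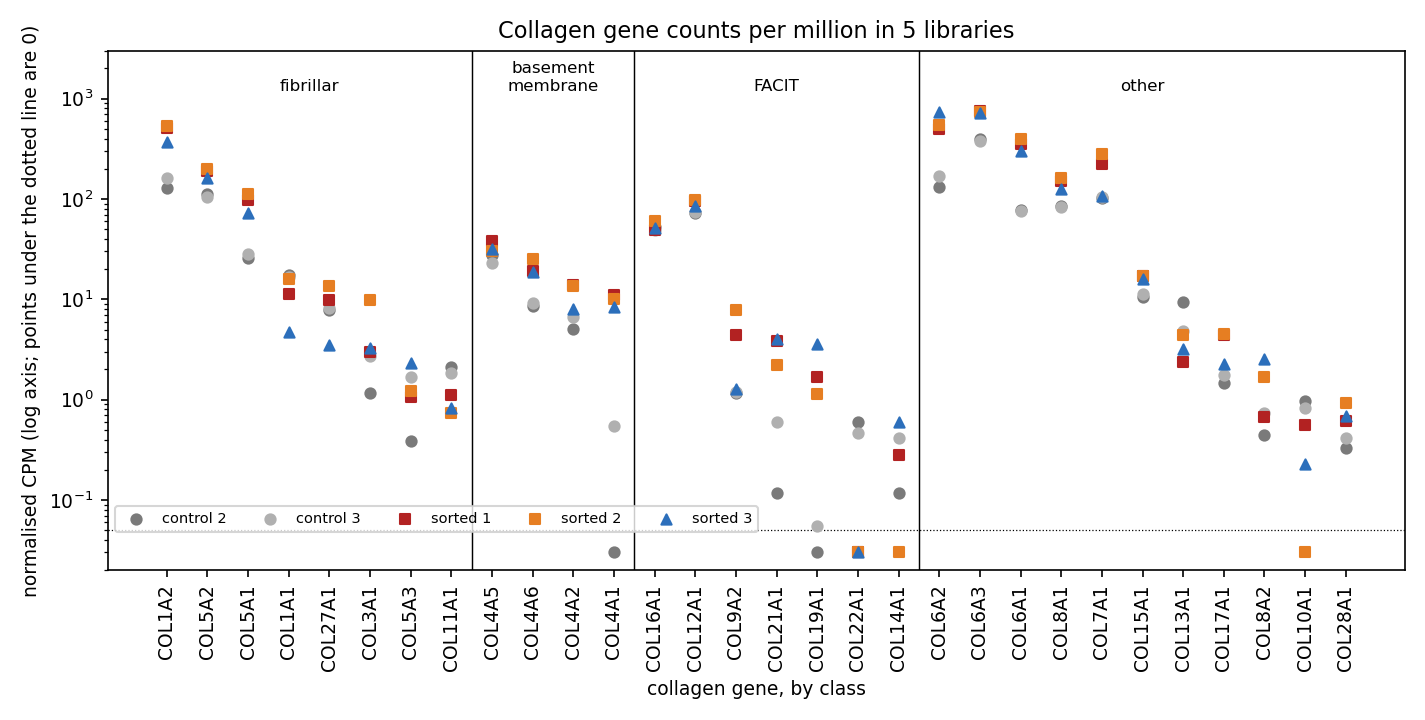
Normalised CPM (vertical log axis) of the 30 tested collagen genes (horizontal axis, by class and then by mean FPKM) in the 5 libraries, with one point per library and points under the dotted line at 0. COL6A1 lies at 76.6 and 78.0 in controls and between 304 and 395 in sorted libraries, while COL16A1 overlaps.

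Among the 5 genes past the threshold, COL6A1 and COL6A2 of type VI had the largest log2 fold changes. The type VI chains COL6A1, COL6A2 and COL6A3 assemble into the beaded filaments that tie cells to the surrounding matrix, and their loss causes muscle disease. COL6A1 (gene 1291, chromosome 21, 45981770 to 46005048, GRCh38.p14) had 78.0 and 76.6 CPM in controls 2 and 3 and 352, 395 and 304 CPM in sorted libraries 1, 2 and 3. Every sorted library lay far above both controls. The log2 fold change came to 2.18 ± 0.21 (SE, adjusted p = 0.0147). COL6A2 (gene 1292, chromosome 21, 46098112 to 46132848) had 131 and 168 CPM in controls, against 502, 552 and 732 CPM in sorted libraries, and was highest in sorted library 3. Its log2 fold change came to 1.99 ± 0.27 (SE, adjusted p = 0.0250). COL6A3, the largest of the chains, had 394 and 375 CPM in controls, against 754, 739 and 714 CPM in sorted libraries. The groups were well apart, but the adjusted p of the log2 fold change, 0.94 ± 0.20 (SE), was 0.0549. It passed by DESeq2 and without sorted library 3, with adjusted p of 9.41e-07 and 1.93e-04. It did not pass in edgeR with the replicate number added to the fit or with library size alone (adjusted p = 0.249 and 0.230).

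Ratios between the type VI chains were set side by side in each library. Per length, COL6A1 stood at 0.443 and 0.451 of COL6A3 in controls, against 1.03, 1.24 and 0.949 of it in sorted libraries (ratios of FPKM). COL6A2 over COL6A3 was 0.912 and 1.22 in controls, against 1.80, 2.13 and 2.80 in sorted libraries. Neither ratio overlapped, and the sorted means were 2.40 and 2.11 times the control means. COL6A1 over COL6A2, the neighbours on chromosome 21, was 0.486 and 0.371 in controls, against 0.572, 0.580 and 0.339 in sorted libraries, which overlapped. In all, 8 ratios between chains of one type were compared, and 6 did not overlap. Among single tested genes, 22.7% had every sorted library above both controls and 27.7% had every one below. Such a share was not worked out for ratios of other genes, and the type VI pairs share chains. A two-sided exact permutation test of 3 against 2 libraries cannot give less than 0.2, which these 6 reached (0.267 after Benjamini-Hochberg adjustment over the 8). The other 2 had p = 0.6 in the same exact test.

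**Figure D3:**
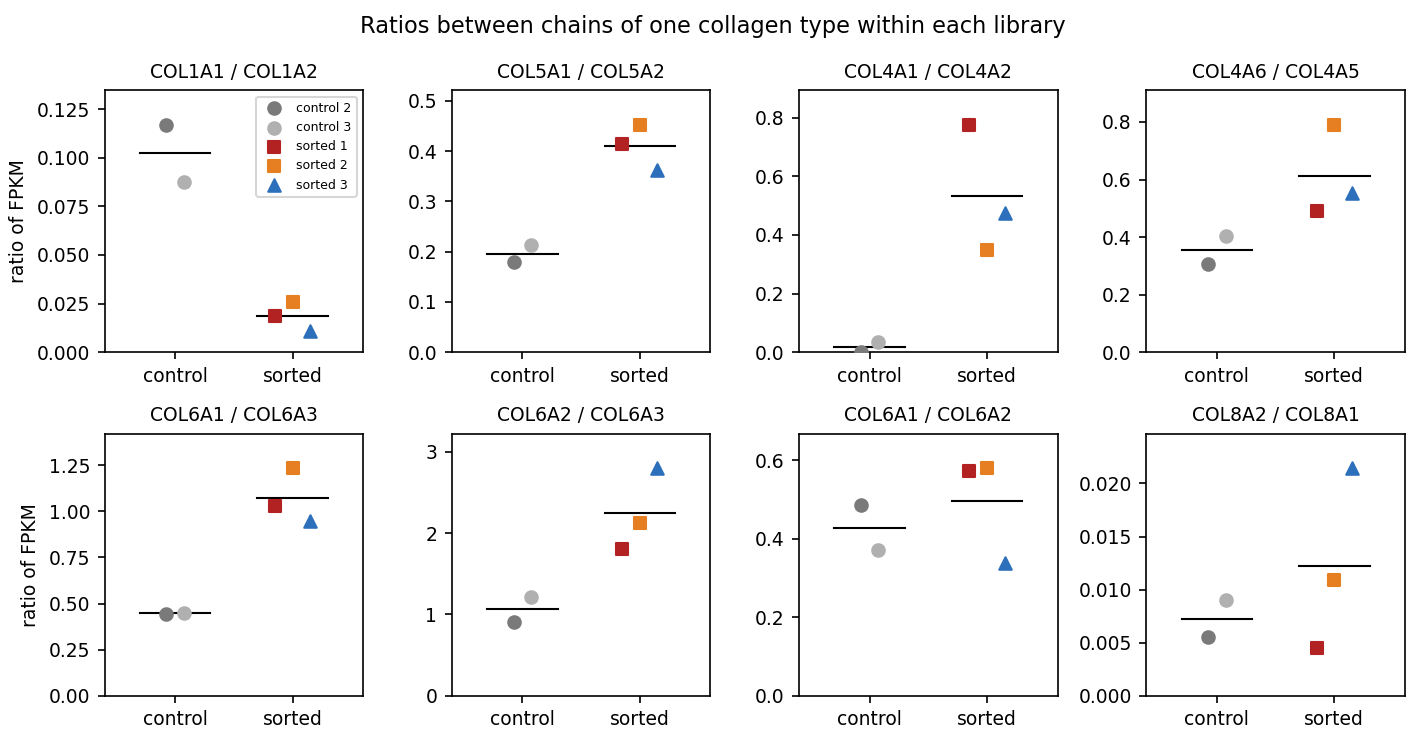
Ratio of FPKM between chains of one collagen type (vertical axes, each from 0) in each library, with controls on the left and sorted libraries on the right of each panel and a line at the group mean. COL1A1 over COL1A2 is lower in every sorted library, at 0.0108 to 0.0259 against 0.0876 and 0.117, and the ratios of COL6A1 and COL6A2 to COL6A3 are higher.

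Among the fibrillar chains, 2 of 8 tested rose and 0 fell, beside 2.20% and 2.40% of all genes, with a median log2 fold change of 0.65. COL1A2, which encodes the alpha 2 chain of type I, the main collagen of bone, skin and tendon (gene 1278, chromosome 7, 94394895 to 94431227), had 129 and 163 CPM in controls. It had 512, 528 and 373 CPM in sorted libraries 1, 2 and 3, all above both controls. The log2 fold change came to 1.69 ± 0.26 (SE, adjusted p = 0.0295). COL5A1, a type V chain that starts and limits fibril growth (gene 1289, chromosome 9, 134641803 to 134844843), had 25.7 and 28.2 CPM in controls, against 96.8, 111 and 72.5 CPM in sorted libraries. Its log2 fold change came to 1.80 ± 0.24 (SE, adjusted p = 0.0250). Its partner COL5A2 had 113 and 106 CPM in controls, against 190, 199.96 and 163 CPM in sorted libraries. These did not overlap, yet the adjusted p of the log2 fold change, 0.75 ± 0.19 (SE), was 0.0743. It passed by DESeq2 and without sorted library 3, with adjusted p of 0.00236 and 7.21e-04. It did not pass in edgeR with the replicate number added to the fit or with library size alone (adjusted p = 0.252 and 0.479). COL5A1 over COL5A2 per length was 0.178 and 0.213 in controls, against 0.415, 0.452 and 0.361 in sorted libraries.

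COL1A1, the alpha 1 chain that usually outnumbers the alpha 2 chain in type I trimers, did not go with COL1A2. It was named after its values were seen, as were the other genes given without a place in the naming rule: COL3A1, COL4A1, COL4A2, COL7A1, COL8A1, COL9A2, COL11A1, COL13A1, COL15A1, COL17A1, COL19A1, COL21A1 and COL27A1. COL1A1 had 17.7 and 16.7 CPM in controls, against 11.3, 15.97 and 4.76 CPM in sorted libraries 1, 2 and 3. All sorted values were lower, but sorted library 2 lay close to the controls, and the adjusted p of the log2 fold change, -0.68 ± 0.47 (SE), was 0.422. Per length, COL1A1 was already far below COL1A2 in controls, at 0.117 and 0.0876 of it. In sorted libraries 1, 2 and 3 it was 0.0188, 0.0259 and 0.0108 of COL1A2, on average 5.52 times lower than in controls. Without sorted library 3, the ratios left, 0.0188 and 0.0259, were still below both controls.

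The other fibrillar genes were at low levels. COL3A1, the chain of reticular fibres, which lies beside COL5A2 on chromosome 2, had 1.16 and 2.74 CPM in controls, against 3.01, 9.74 and 3.25 CPM in sorted libraries. Only sorted library 2 was far from the controls, and the adjusted p was 0.250. COL11A1, a cartilage fibril chain also seen in invasive tumour stroma, had 2.11 and 1.86 CPM in controls, against 1.11, 0.733 and 0.832 CPM in sorted libraries, with an adjusted p of 0.223. COL27A1 overlapped between the groups, from 3.48 CPM in sorted library 3 to 13.5 CPM in sorted library 2 around the controls at 7.78 and 8.11.

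Among the basement membrane chains, 1 of 4 tested rose and 0 fell, beside 2.20% and 2.40% of all genes. All 4 had every sorted library above both controls, as had 22.7% of all genes. The median log2 fold change was 1.13, and 3 of the 4 were higher without sorted library 3, where 15.4% of all genes were. COL4A6 (gene 1288, chromosome X, 108155614 to 108439458) had 8.61 and 9.23 CPM in controls, against 19.2, 25.2 and 18.7 CPM in sorted libraries. Its log2 fold change came to 1.24 ± 0.25 (SE, adjusted p = 0.0472), just inside the threshold. Its head-to-head neighbour COL4A5, the chain mutated in X-linked Alport syndrome, had 27.8 and 22.8 CPM in controls, against 38.1, 30.6 and 31.7 CPM in sorted libraries. The groups lay close together, 0.40 ± 0.21 (SE) on the log2 scale, and the adjusted p was 0.289. COL4A6 over COL4A5 per length was 0.307 and 0.404 in controls, against 0.491, 0.791 and 0.552 in sorted libraries.

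COL4A1 and COL4A2 encode the chains of the common basement membrane network and also lie head to head, with 127 bases between the genes on chromosome 13. COL4A1 had 0 and 20 counts in controls 2 and 3 and 197, 275 and 111 counts in sorted libraries 1, 2 and 3. In CPM this was 0 and 0.548 against 10.98, 10.1 and 8.39. All sorted libraries were far above both controls, but the adjusted p of the log2 fold change, 5.11 ± 1.06 (SE), was 0.0537 and rests on few control counts. It passed by DESeq2 and without sorted library 3, with adjusted p of 1.03e-06 and 0.0117. COL4A2 had 5.10 and 6.63 CPM in controls, against 13.9, 13.6 and 7.94 CPM in sorted libraries, with sorted library 3 near the controls. Its log2 fold change came to 1.02 ± 0.34 (SE, adjusted p = 0.133, or 0.00406 without that library). COL4A1 over COL4A2 per length was 0 and 0.0363 in controls, against 0.776, 0.350 and 0.475 in sorted libraries. For COL4A1 the FPKM per count, set against each library's median, was higher in sorted library 1 than in the others by 1.06 to 1.17 on the log2 scale, so the ratio of 0.776 there reflects that as well as the counts. COL4A3 and COL4A4, the pair of kidney and lung basement membranes, had at most 15 counts in any library.

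Promoter windows are printed for COL4A6, COL5A1 and COL6A2, the genes past the threshold that have one, and for COL4A2 because its window holds the starts of both it and COL4A1. The windows hold 250 bases before and 50 after an annotated transcript start and come from RefSeq (GRCh38.p14), in which 32 of the 44 genes had a window. Capitals mark the TATA box (TATAAA), the CCAAT box and the GC box (GGGCGG), each searched on both strands. The COL4A2 window, chr13:110307034-110307333 on the plus strand, holds the start of COL4A1 on the other strand. The COL4A6 window is chrX:108439409-108439708 on the minus strand and reaches into the window of COL4A5. The COL5A1 window is chr9:134641553-134641852 and the COL6A2 window chr21:46097862-46098161, both on the plus strand. A second start of COL4A6 and one of COL5A1 are not shown.
COL4A2: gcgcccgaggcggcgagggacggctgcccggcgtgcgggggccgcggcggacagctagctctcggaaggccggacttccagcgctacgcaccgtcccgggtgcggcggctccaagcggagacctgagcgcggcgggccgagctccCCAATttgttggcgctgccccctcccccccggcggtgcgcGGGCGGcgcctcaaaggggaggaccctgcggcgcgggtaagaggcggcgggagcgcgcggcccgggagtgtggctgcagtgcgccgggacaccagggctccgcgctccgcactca
COL4A6: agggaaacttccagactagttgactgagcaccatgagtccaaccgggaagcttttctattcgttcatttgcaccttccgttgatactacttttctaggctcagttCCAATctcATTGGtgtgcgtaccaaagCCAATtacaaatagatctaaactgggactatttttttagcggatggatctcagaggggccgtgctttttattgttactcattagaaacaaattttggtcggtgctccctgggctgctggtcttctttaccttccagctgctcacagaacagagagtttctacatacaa
COL5A1: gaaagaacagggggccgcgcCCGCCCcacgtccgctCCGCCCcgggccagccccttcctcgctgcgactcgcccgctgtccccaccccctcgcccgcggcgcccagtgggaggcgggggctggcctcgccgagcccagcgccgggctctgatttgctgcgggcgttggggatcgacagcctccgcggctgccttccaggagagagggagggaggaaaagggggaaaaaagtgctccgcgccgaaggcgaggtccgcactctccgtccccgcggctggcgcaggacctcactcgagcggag
COL6A2: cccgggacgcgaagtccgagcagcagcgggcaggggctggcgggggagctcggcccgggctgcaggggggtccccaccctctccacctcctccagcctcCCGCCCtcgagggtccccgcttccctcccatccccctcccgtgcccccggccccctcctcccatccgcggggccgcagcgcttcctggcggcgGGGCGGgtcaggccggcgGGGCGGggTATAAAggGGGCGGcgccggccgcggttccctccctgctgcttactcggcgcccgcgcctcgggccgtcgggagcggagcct

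The 4 windows differ in the letters searched. COL6A2 has 1 TATA box and 4 GC boxes, COL5A1 2 GC boxes, COL4A2 1 CCAAT box and 1 GC box, and COL4A6 3 CCAAT boxes. The GC content runs from 43.7% for COL4A6 to 79.3% for COL6A2. Over the 44 windows of the 32 collagen genes, 18.2% hold a TATA box, 31.8% a CCAAT box and 54.5% a GC box. Over all 35116 windows of the table the shares are 11.5%, 34.6% and 45.0%. None of the marked boxes overlap in the windows shown. A match describes letters and is not a bound site.

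Among the FACIT chains, edgeR called 0 of 7 tested. Unadjusted p lay under 0.05 for 3 with a gain and 1 with a loss, beside 12.2% and 13.6% of all genes. By DESeq2 2 gains and 0 losses passed (8.76% and 8.16% of all genes), and by limma-voom 0 and 0 (3.78% and 5.35%). The median log2 fold change was 0.33, and -0.051 with library size alone. Without sorted library 3 COL14A1 was not tested, and the median of the FACIT genes left was 1.39. In that fit 4 were higher and 1 lower, beside 15.4% and 16.8% of all genes. COL12A1, the gene at the median of 0.33, was at 0.40 there. The most abundant were COL16A1 and COL12A1, which link fibrils to other matrix. COL16A1 had 52.8 and 49.2 CPM in controls, against 48.6, 60.7 and 51.2 CPM in sorted libraries. These overlapped, and the adjusted p of the log2 fold change, 0.07 ± 0.19 (SE), was 0.862. COL12A1 had 72.2 and 74.9 CPM in controls, against 96.2, 97.7 and 84.2 CPM in sorted libraries. The shift was small, at 0.33 ± 0.17 (SE, adjusted p = 0.281, or 0.0196 without sorted library 3), and it turned negative with library size alone (-0.051) and on log2(TPM + 1) (-0.59), as did that of COL16A1 (-0.32 and -0.80).

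The FACIT genes with large differences were rare transcripts. COL19A1, a chain of some basement membrane zones and of developing muscle and brain, had 0 and 2 counts in controls, against 30, 31 and 47 in sorted libraries. Per effective library size the sorted sum was 64.8 times the control sum, with an exact 95% counting interval of 17.5 to 542, and the adjusted p was 0.0529, or 1.20e-04 by DESeq2 and 0.00990 without sorted library 3. COL21A1 had 4 and 22 counts in controls, against 69, 61 and 53 in sorted libraries (adjusted p = 0.0743, or 0.00124 by DESeq2 and 0.0170 without sorted library 3). COL9A2, a cartilage chain, had 1.16 and 1.20 CPM in controls, against 4.40, 7.88 and 1.29 CPM in sorted libraries, where library 3 stood just above the controls (adjusted p = 0.174, or 0.00296 without that library). COL22A1, a chain of tissue junctions (gene 169044, chromosome 8), went the other way, with 20 and 17 counts in controls, against 0 in all 3 sorted libraries. With the sorted floor at 3 counts per library it was at least 3.15-fold lower, and the adjusted p was 0.119. Without sorted library 3 that p was 0.0292.

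In the classes left, 2 of 11 tested genes rose, both of type VI, and 0 fell, beside 2.20% and 2.40% of all genes. Unadjusted p lay under 0.05 for 6 gains and 1 loss in these classes, beside 12.2% and 13.6% of all genes. Their median log2 fold change was 0.99. COL8A1, a short-chain collagen of vessel walls and corneal basement membrane, had 84.8 and 84.0 CPM in controls, against 150, 162 and 125 CPM in sorted libraries, without overlap (adjusted p = 0.0717, or 0.00272 by DESeq2 and 6.62e-04 without sorted library 3). In edgeR with the replicate number added to the fit its adjusted p was 0.227, and with library size alone 0.459. COL7A1, which forms the anchoring fibrils of skin, had 101 and 104 CPM in controls, against 223, 281 and 106 CPM in sorted libraries. Sorted library 3 stood just above the controls, and the adjusted p was 0.194, or 3.30e-04 without that library. COL15A1, a multiplexin of basement membrane zones, had 10.6 and 11.2 CPM in controls, against 17.2, 16.9 and 15.96 CPM in sorted libraries (log2 fold change 0.61 ± 0.21 SE, adjusted p = 0.137, or 0.0239 without sorted library 3). Neither of the tested transmembrane collagens, COL17A1 and COL13A1, passed the threshold. COL17A1, a hemidesmosome component, had 1.45 and 1.78 CPM in controls, against 4.46, 4.54 and 2.27 CPM in sorted libraries (adjusted p = 0.164, or 0.0134 without sorted library 3). COL13A1, found at cell adhesions and the neuromuscular junction, had 9.35 and 4.87 CPM in controls, against 2.40, 4.40 and 3.18 CPM in sorted libraries (adjusted p = 0.172). As a difference in CPM, the controls were further apart for COL13A1 than control 3 was from any sorted library. As a ratio this did not hold for sorted library 1.

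**Figure D4:**
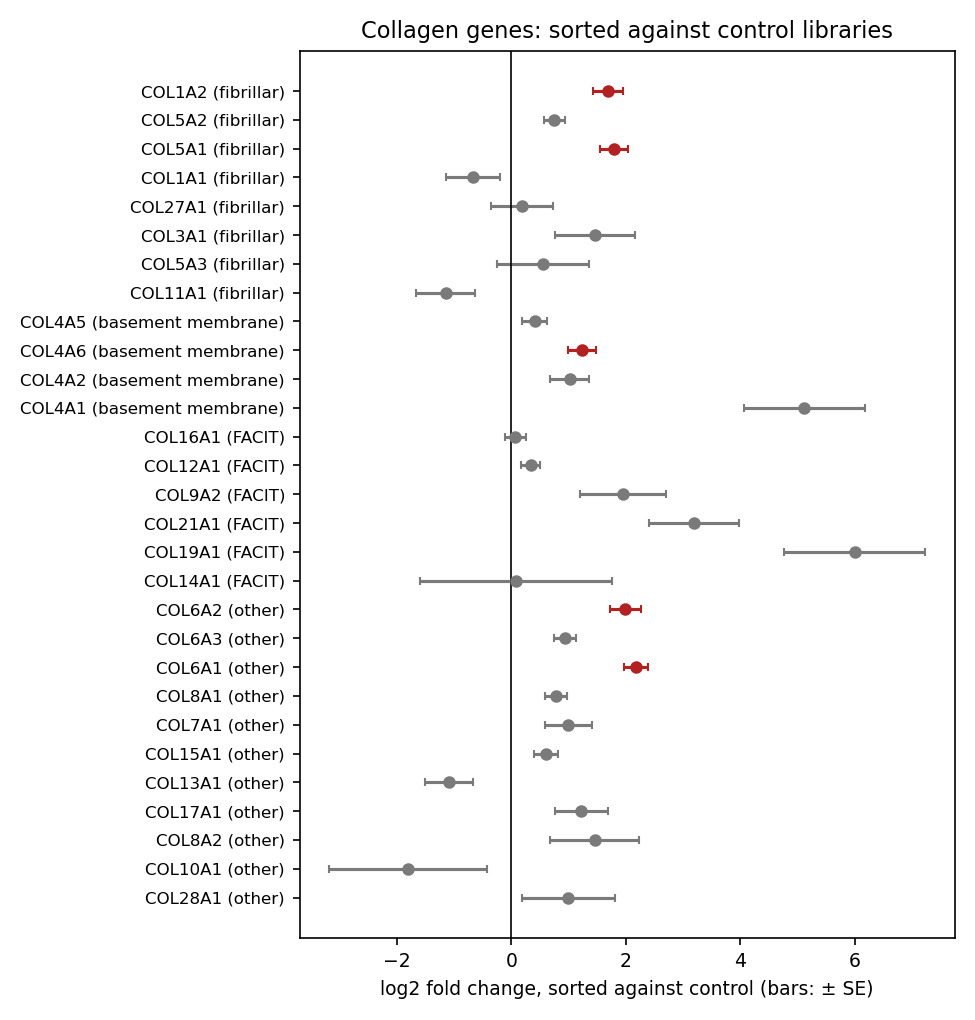
Log2 fold change, sorted against control (horizontal axis, bars ± SE), of 29 of the 30 tested collagen genes by class, with the 5 past the threshold in red. COL22A1 is left out because it had 0 counts in all sorted libraries. The 5 called genes lie between 1.24 and 2.18. The widest bars belong to genes with few counts, but COL7A1, with 1408 to 7665 counts per library, also has an SE of 0.41.

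The genes that make, process, bind and degrade collagen were counted from 4 lists. Of 24 tested genes of maturation and export in the endoplasmic reticulum, 2 rose and 0 fell, with a median log2 fold change of 0.85, and all sorted libraries lay above both controls for 18. Over all genes 2.20% rose, and 22.7% had every sorted library above both controls. P4HA2, a prolyl hydroxylase subunit that stabilises the helix, rose from 242 ± 1.16 to 705 ± 206 CPM (SD, n = 2 and 3; edgeR adjusted p = 0.0463). P3H3, a prolyl 3-hydroxylase family member, rose from 13.0 ± 0.981 to 33.1 ± 3.71 CPM (SD, n = 2 and 3; edgeR adjusted p = 0.0297). Unadjusted p lay under 0.05 for 13 gains and 0 losses, beside 12.2% and 13.6% of all genes. By DESeq2 12 gains and 0 losses passed, beside 8.76% and 8.16% of all genes, and by limma-voom 9 and 0, beside 3.78% and 5.35%. On log2(TPM + 1) 0 were called higher and 1 lower, where 0.577% and 9.20% of all genes were.

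Of 14 tested genes for processing and cross-linking, 3 rose and 1 fell, beside 2.20% and 2.40% of all genes, with a median of 0.94. Unadjusted p lay under 0.05 for 8 gains and 2 losses, beside 12.2% and 13.6% of all genes. By DESeq2 5 gains and 2 losses passed (8.76% and 8.16% of all genes), against 4 and 2 by limma-voom (3.78% and 5.35%). The lysyl oxidase genes LOXL1 and LOXL2, which cross-link collagen and elastin, rose from 17.7 to 99.6 CPM and from 73.2 to 315 CPM (adjusted p = 0.0118 and 0.0265). LOXL4 of the same family, named after its values were seen, had 40 and 58 counts in controls and 0 in all 3 sorted libraries. With the sorted floor at 3 counts per library it was at least 8.26-fold lower. The adjusted p was 0.0593, or 0.00103 by DESeq2, 0.0310 by limma-voom and 0.00480 without sorted library 3. PCOLCE2, an enhancer of procollagen cleavage, rose from 27.8 to 124 CPM, with 187 CPM in sorted library 3 against 92.9 and 91.7 in the others (adjusted p = 0.0387). LUM, the proteoglycan lumican that spaces fibrils, fell from 26.7 to 7.57 CPM (adjusted p = 0.0378).

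Of 14 tested collagen receptors, edgeR called 0, with 4 higher and 2 lower at an unadjusted p under 0.05. DESeq2 and limma-voom each called 2 receptors higher and 1 lower. Over all genes, 12.2% were higher and 13.6% lower at that unadjusted p. DESeq2 called 8.76% and 8.16% of all genes, and limma-voom 3.78% and 5.35%. ITGB1, the shared beta subunit of collagen-binding integrins, had 1205 and 1118 CPM in controls, against 991, 1008 and 1154 CPM in sorted libraries, which overlapped. Of 11 tested degradation genes, 0 rose and 3 fell, beside 2.20% and 2.40% of all genes, with a median of -0.37, and 1 was higher and 3 were lower at an unadjusted p under 0.05. In DESeq2 1 passed as higher and 3 as lower, against 0 and 3 by limma-voom. The collagenase gene MMP1 fell from 156 to 49.0 CPM, the collagen-cleaving cathepsin gene CTSK from 172 to 30.6 CPM, and FAP, a protease of activated fibroblasts, from 122 to 47.4 CPM (adjusted p = 0.0426, 0.0305 and 0.0274). Without sorted library 3, 16 maturation genes were higher and 1 lower, and 8 processing genes were higher and 2 lower. In that fit 3 receptor genes were higher and 3 lower, and 2 degradation genes higher and 5 lower. Over all genes it called 15.4% higher and 16.8% lower. Without any one of the other 4 libraries, edgeR called 0 genes of the 4 lists. On log2(TPM + 1) 0 processing, receptor or degradation genes were higher. In that setting 2 processing, 1 receptor and 4 degradation genes were lower, where 0.577% of all genes were higher and 9.20% lower.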

How the data were processed

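The authors deposited 1 table with an estimated count, an FPKM and a TPM value per gene and library, per the file headers. Estimated counts are whole numbers and not normalised. The submitters' processing notes name GRCh38 and StringTie but no role or version. Aligner, strand setting and filters: not given in the sources used here. StringTie derives counts from coverage, so they are called estimated counts. They needed no rounding.

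All genes were fitted together with edgeR 4.0.16 in R 4.3.3 (filterByExpr, TMM, robust quasi-likelihood test, group as the only term), which left 16304 genes, with Benjamini-Hochberg adjustment over them and a threshold of 0.05. SE is the absolute fold change over the square root of F. Alternatives used limma 3.58.1, DESeq2 1.42.0, other scalings and filters, log2 of TPM or FPKM (pseudocount 1 or 0.1), and each library left out. Ratios used scipy 1.17.1.

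No library repeated another: the lowest chi-square per degree of freedom over genes was 21.3. Genes named in full were those past the threshold, the 2 most abundant members of each class, and members at 0 in a whole group with at least 10 counts in every library of the other. Of the 4 pathway lists, every gene past the threshold was named, or the most abundant where none passed. Members and lists were chosen with earlier results of these data known. Positions are from the RefSeq gene table of GRCh38.p14. Planned counts of protein repeats and motifs were not made, and protein sequences were not used here. Intervals and floors cover counting error only.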

Additional observations from a re-analysis of the deposited data

How the results depend on the processing

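The 5 gains depended on the scaling and on which libraries were fitted. Members called higher numbered 1 with library size alone (113 of all genes higher and 314 lower), 8 with at least 1 CPM in 2 libraries (452 and 488), 11 in DESeq2 (1429 and 1331), 9 in limma-voom (617 and 873), 0 on log2(TPM + 1) (94 and 1500) and on log2(TPM + 0.1) (47 and 361), 2 on log2(FPKM + 1) (192 and 895), and 0 at an adjusted p under 0.01 (9 and 5). With 1 library left out they ranged from 0 (each of both controls, sorted 1 and sorted 2) to 17 (sorted 3), and those called lower from 0 to 1. RLE gave 5 (354 of all genes higher and 377 lower), upper quartile 6 (389 and 323) and protein-coding genes alone 6 (374 and 425 of 13013 genes). No filter gave 7 of 37 members tested (472 and 587 of 24476 genes). Each of these settings kept the same 5 genes. The replicate numbers 2 and 3 are shared by title only, and the differences between libraries 2 and 3 correlated across genes at 0.06 between the groups. With the replicate number as a block, 4 were higher, as COL1A2 and COL4A6 missed the threshold (adjusted p = 0.0737 and 0.118) and COL4A1 passed it (0.0393). COL19A1, COL21A1 and LOXL4 did not pass with the block (0.0665, 0.0809 and 0.162). In that fit 192 genes were higher and 219 lower in all, and of the 9 pathway genes called, P4HA2 (0.0755), P3H3 (0.0793), LUM (0.0602), MMP1 (0.0516) and FAP (0.0687) missed the threshold.

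Signs turned for genes without a call. With library size alone COL16A1 was at -0.32 and COL12A1 at -0.051, where the median of all genes was -0.40. COL27A1, which was 0.19 in the fit reported, was -0.13 with library size alone, -0.34 and -0.72 on log2(TPM + 1) and log2(TPM + 0.1), -0.079 on log2(FPKM + 1), -0.17 with the block, and from -0.24 (without sorted library 2) to 0.57 (without sorted library 3) with 1 library left out. On log2(TPM + 1), with all genes at -0.64, COL5A2 was at -0.23, COL4A5 -0.43, COL16A1 -0.80, COL12A1 -0.59, COL6A3 -0.037, COL8A1 -0.16, COL7A1 -0.10 and COL15A1 -0.25. On log2(TPM + 0.1), with all genes at -0.94, the same 8 were at -0.25, -0.53, -0.88, -0.67, -0.039, -0.17, -0.14 and -0.36. On log2(FPKM + 1), with all genes at -0.26, COL16A1 was at -0.31 and COL12A1 at -0.11. COL16A1 ranged from -0.025 (without sorted library 2) to 0.13 (without sorted library 1) with 1 library left out. The cause was not tested. Within a library a ratio of TPM equals that of FPKM, so TPM could not change the 8 chain ratios. With each library left out, the 6 ratios that did not overlap could not turn either. COL6A1 over COL6A2 and COL8A2 over COL8A1, which overlapped, kept their direction with each library left out. COL4A1 over COL4A2 has no value without control 3, because COL4A1 is 0 in control 2. Sorted over control, collagen was 1.45 on summed TPM, 1.80 as a share of counts, 2.18 as a share of protein-coding TPM and 2.36 on summed CPM. Depth limits COL4A1, COL19A1, COL21A1 and COL22A1, which had under 30 counts in each control.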
